A study of Mus musculus with 10 samples.

Results

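The RNA levels of tau, of the related proteins MAP2 and MAP1B and of the kinase genes that act on them were compared in the hippocampus of Tg(Dyrk1a) and wild-type mice. There were 10 genes, listed by symbol with earlier results of these data known: Mapt, Map2, Map1b, Gsk3a, Gsk3b, Cdk5, Cdk5r1, Mark1, Mark2 and Mark4. All 10 were measured, out of 19938 genes with a single symbol on the array, and 11 transcript clusters carried their symbols because Mark2 had a pair. A transcript cluster is the set of probes, spread along a gene, that the array summarises as 1 value. Each gene was represented by the cluster with the highest mean over the 10 arrays.

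Tg(Dyrk1a) mice are a mouse model of Down syndrome that carries Dyrk1a on a bacterial artificial chromosome (BAC) in addition to the normal copies. The arrays came from 5 male Tg(Dyrk1a) mice and 5 male wild-type littermates aged 16 weeks, which the labels place on the C57BL/6N background and the study's methods on C57BL/6J. RNA was pooled over the right and left hippocampus of a mouse and measured on 1 array per mouse, and the mice of a genotype are named as biological replicates. The study asked which genes differ between such a model and its control littermates.

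Tau, the product of Mapt, binds and stabilises axonal microtubules, and MAP2 and MAP1B do so in dendrites and in growing axons. Tau and MAP2 are phosphorylated by glycogen synthase kinase 3 (GSK3), cyclin-dependent kinase 5 (CDK5) with its activator p35, and microtubule affinity-regulating kinases (MARKs). Such phosphorylation can loosen them from the microtubule. DYRK1A is itself a tau kinase and can prime substrates for GSK3, which is why these genes are of interest in Down syndrome models. The arrays measured RNA, so protein amount, kinase activity and phosphorylation were not observed.

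The promoters of Gsk3b and Mark2 are shown because these genes had the largest genotype differences of the 10, both with the lower mean in Tg(Dyrk1a). The windows are the 250 bases upstream of an annotated RefSeq start in the GRCm38.p6 build, read 5′ to 3′ on the gene's strand, and the capitals mark GC boxes (GGGCGG) and CCAAT boxes on either strand. The Gsk3b window is chr16:38088751-38089000 on the plus strand and the Mark2 window is chr19:7341861-7342110 on the minus strand. Mark2 has another annotated start, whose window lies inside the gene, so the window at the outermost start was taken.
Gsk3b: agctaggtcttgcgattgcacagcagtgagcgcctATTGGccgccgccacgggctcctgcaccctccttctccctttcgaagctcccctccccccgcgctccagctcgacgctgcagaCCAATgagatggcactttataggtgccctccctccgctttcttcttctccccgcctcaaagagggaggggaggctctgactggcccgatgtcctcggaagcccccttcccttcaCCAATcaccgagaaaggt
Mark2: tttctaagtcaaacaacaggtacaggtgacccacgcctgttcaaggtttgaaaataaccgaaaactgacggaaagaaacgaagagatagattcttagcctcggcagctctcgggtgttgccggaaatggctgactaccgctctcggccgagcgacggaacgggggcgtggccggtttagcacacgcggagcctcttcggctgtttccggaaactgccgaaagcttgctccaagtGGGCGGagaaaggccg
The Gsk3b window held 3 CCAAT boxes, no GC box and 1 TATAAA, which lay on the opposite strand and is not capitalised, and its GC content was 62.0%. This Mark2 window held 1 GC box, no CCAAT box, and 1 TGACG, a core of the cAMP response element, and its GC content was 55.6%. The window at the other Mark2 start also held 1 GC box and no CCAAT box, held no TGACG, and had a GC content of 56.0% and a ratio of observed to expected CpG of 0.31 against 1.15 at the outermost start. Over 32851 mouse promoter windows of the same length the median GC content was 52.4%, and 33.8% of windows held CCAAT, 32.7% GGGCGG, 17.8% TGACG and 12.4% TATAAA on either strand. CTCGCGAG, the core of a palindrome known from promoters that bind DYRK1A, stood in 0.8% of all windows and in 0 of the 8 windows found for 6 of the 10 genes (Gsk3a, Gsk3b, Map1b, Map2, Mark1 and Mark2). These letter matches are descriptions of the sequence and do not show binding.

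Dyrk1a itself, the gene in excess, was higher in the transgenic hippocampus. The log2 values of its cluster with the highest mean in Tg(Dyrk1a) replicates 1 to 5 were 11.65, 11.62, 11.67, 11.65 and 11.68. In wild-type replicates 1 to 5 they were 11.28, 11.15, 11.14, 11.19 and 11.15. Every transgenic array lay above every wild-type array. The difference was 0.47 ± 0.03 on the log2 scale (limma standard error, n = 5 per genotype), or 1.38-fold (95% interval 1.31 to 1.46), with an adjusted p of 0.000138 by limma over 23410 transcript clusters. With marker scores of choroid plexus, meninges and thalamus in the fit it was 0.45, with a limma adjusted p of 0.380. Another Dyrk1a cluster differed less, with values of 9.08, 8.90, 8.95, 8.88 and 8.88 in Tg(Dyrk1a) and 8.84, 8.87, 8.75, 8.73 and 8.72 in wild type. These did not overlap either, but the difference of 0.16 ± 0.05 (1.11-fold) had a limma adjusted p of 0.947, and the mean of both clusters differed by 0.31 (limma adjusted p = 0.0169).

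Few clusters of the whole array separated the genotypes. Only 2 of the 23410 transcript clusters passed limma at an adjusted p under 0.05 (0.00854%), 1154 (4.93%) had an unadjusted p under 0.05, and 189 (0.807%) did not overlap between genotypes. Arrays correlated at 0.994 to 0.998, and their medians ran from 6.57 to 6.66. All 8 neuron markers and all 8 markers of hippocampal pyramidal and granule cells were measured, of which Tdo2 alone had values (5.79 to 6.40) under every array median. The summed neuron marker level (mean deviation from each gene's mean, log2) ran from -0.027 to 0.043 in Tg(Dyrk1a) and from -0.065 to 0.021 in wild type, with 0 of 8 neuron markers at an unadjusted p under 0.05. The pyramidal and granule cell markers had the higher mean in Tg(Dyrk1a) for 7 of 8 genes, with a median difference of 0.07, 2 at an unadjusted p under 0.05 (Tdo2 and C1ql2, both higher), 0 adjusted, and a summed level of -0.05 to 0.21 in Tg(Dyrk1a) against -0.11 to 0.03 in wild type. The choroid plexus, the tissue beside the hippocampus that makes cerebrospinal fluid, stood high in 3 arrays, Tg(Dyrk1a) replicates 2 and 4 and wild-type replicate 5, at 1.41, 1.07 and 1.32 by the same measure over 9 markers measured of 10. Wild-type replicate 5 also stood apart in thalamus and habenula markers, at 0.517 against -0.108 to 0.023 in the other arrays. These markers had the higher mean in Tg(Dyrk1a) for only 1 of 10 genes, with a median difference of -0.13, 2 at an unadjusted p under 0.05 (Ramp3 lower and Tac2 higher) and 0 adjusted. Meningeal markers were higher in Tg(Dyrk1a) for 10 of 10 genes and endothelial and mural markers for 6 of 8, with 4 at an unadjusted p under 0.05 in each list and 0 adjusted. The part of these tissues in the differences below was not tested, except where values without those arrays or with marker scores in the fit are given.

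The RNA of the 10 genes did not differ detectably between genotypes. Of the 10, 0 passed limma at an adjusted p under 0.05, 0 had an unadjusted p under 0.05, and 0 were without overlap between genotypes. Over all clusters these shares were 0.00854%, 4.93% and 0.807%, so low that 0 of 10 says little about these genes as a set. FCROS, rewritten here from the rank method that the study used to call genes, called 0 of the 10 against 1131 clusters (4.83%) in all. That share is largely set by the cut, which takes the outer part of a scale fitted to all clusters. The mean was higher in Tg(Dyrk1a) for 4 genes and lower for 6, and 5 of the 10 changed sign in at least 1 of 21 alternative settings. The median difference was -0.0054 on the log2 scale, against 0.0010 over all clusters, and the median size of a difference was 0.016, against 0.032 over all clusters. With the marker scores in the fit, Mark2 differed by -0.07, the largest in size, and Gsk3b by -0.06. Mapt, Cdk5 and Mark4 each differed by 0.06 and Cdk5r1 by 0.03. Mark1 differed by -0.05, Map2 by -0.03, Map1b by -0.02 and Gsk3a by 0.004. The limma adjusted p was 0.9997 for each of the 10.

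The intervals of these differences, without such scores, were narrow. All 10 of the 95% limma intervals lay within 1.1-fold in either direction, from a lowest bound of 0.918-fold for Mark2 to a highest of 1.08-fold for Cdk5r1. The Dyrk1a difference was 9.35 times the largest difference among the 10 genes. The spread between mice of a genotype was small for these genes, with a median SD of 0.047 against 0.070 over all clusters. The 10 genes stood at the 74.0 to 99.5 percentile of level. Neither this contrast nor that of the median size of a difference was matched for level. All 100 values lay well above the median of their array, the lowest at 8.82.

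**Figure D1:**
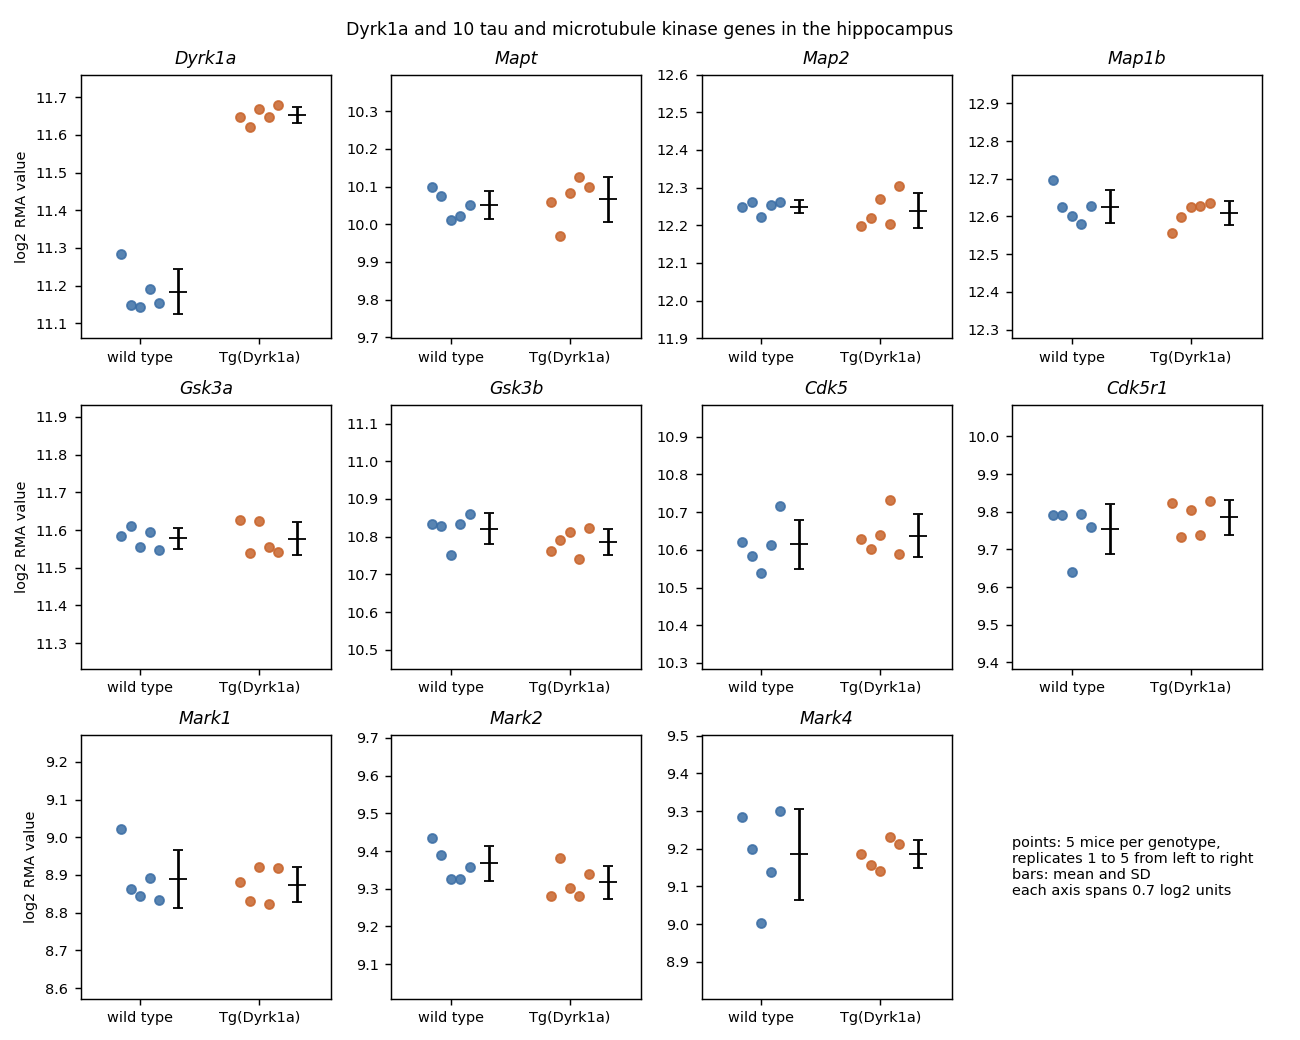
Log2 RMA value (vertical axis, spanning 0.7 log2 units in each panel) of Dyrk1a and the 10 genes in each mouse, with replicates 1 to 5 from left to right and the mean and SD drawn beside the 5 points. The genotypes separate for Dyrk1a and overlap for each of the 10 genes.

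The microtubule-binding proteins came first. Mapt, on chromosome 11 (104229409-104332090, GRCm38.p6), had log2 values of 10.06, 9.97, 10.08, 10.12 and 10.10 in Tg(Dyrk1a) replicates 1 to 5. The wild-type values were 10.10, 10.08, 10.01, 10.02 and 10.05. The lowest and the highest of the 10 arrays were both transgenic, and the wild-type arrays lay between them. The means were 10.07 ± 0.06 and 10.05 ± 0.04 (SD, n = 5 each), a difference of 0.02 ± 0.04 (95% interval -0.06 to 0.09, limma adjusted p = 0.981, exact permutation p = 0.643). It was 0.00052 without Tg(Dyrk1a) replicate 4 and 0.04 without Tg(Dyrk1a) replicate 2. Since the RNA came from whole tissue, here and below fewer cells of a type and less RNA per cell cannot be told apart.

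Map2, a marker of dendrites on chromosome 1 (66175202-66442583), had values of 12.20, 12.22, 12.27, 12.20 and 12.30 in Tg(Dyrk1a). The 5 wild-type arrays read 12.25, 12.26, 12.22, 12.25 and 12.26. The wild-type arrays were tightly grouped, with an SD of 0.017 against 0.046 in Tg(Dyrk1a), and lay inside the transgenic range. The difference in means was -0.01 ± 0.03 (95% interval -0.08 to 0.06, limma adjusted p = 0.983, exact permutation p = 0.635). Map1b, which acts in growing axons and lies on chromosome 13 (99421464-99516602), had values of 12.56, 12.60, 12.62, 12.63 and 12.64 in Tg(Dyrk1a). Wild-type replicates 1 to 5 read 12.70, 12.63, 12.60, 12.58 and 12.63. Wild-type replicate 1 was the highest array and Tg(Dyrk1a) replicate 1 the lowest, and the other arrays of both genotypes were mixed. The difference was -0.02 ± 0.03 (95% interval -0.09 to 0.05, limma adjusted p = 0.976, exact permutation p = 0.556).

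The GSK3 kinases, which phosphorylate tau at many sites and also drive the breakdown of beta-catenin, were next. Gsk3a, on chromosome 7 (25228258-25237851), had values of 11.63, 11.54, 11.62, 11.56 and 11.54 in Tg(Dyrk1a). Wild type had 11.58, 11.61, 11.55, 11.59 and 11.55. The highest and the lowest arrays were transgenic, with the wild-type arrays between them, and the means were 11.58 ± 0.04 and 11.58 ± 0.03 (SD). The difference was -0.00050 ± 0.031 (95% interval -0.07 to 0.07, limma adjusted p = 1.00, exact permutation p = 0.992).

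Gsk3b, the isoform most studied as a tau kinase, had the second largest difference of the 10. Its values in Tg(Dyrk1a) were 10.76, 10.79, 10.81, 10.74 and 10.82. The wild-type values were 10.83, 10.83, 10.75, 10.83 and 10.86. All 5 transgenic arrays lay below 4 of the wild-type arrays, and wild-type replicate 3 lay among the transgenic ones. The difference was -0.04 ± 0.03 (95% interval -0.10 to 0.03, limma adjusted p = 0.954, exact permutation p = 0.159), and it was -0.01 after the 3 arrays with high choroid plexus signal were left out and -0.06 with the marker scores in the fit. Gsk3b (38089001-38246084) shares chromosome 16 with Dyrk1a (94569947-94695519) and lies 56.3 Mb from it,.

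CDK5 and its activator followed. Cdk5, a kinase active in neurons and located on chromosome 5 (24407597-24423587), had values of 10.63, 10.60, 10.64, 10.73 and 10.59 in Tg(Dyrk1a). The 5 wild-type arrays read 10.62, 10.58, 10.54, 10.61 and 10.71. A single array was high in each genotype, Tg(Dyrk1a) replicate 4 and wild-type replicate 5, and both were among the 3 with high choroid plexus signal. The remaining array of those 3, Tg(Dyrk1a) replicate 2, was at 10.60, below the gene mean. The difference was 0.02 ± 0.04 (95% interval -0.06 to 0.11, limma adjusted p = 0.976, exact permutation p = 0.540) and was 0.00015 without Tg(Dyrk1a) replicate 4 and 0.05 without wild-type replicate 5. It was 0.03 after the 3 arrays with high choroid plexus signal were left out.

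Cdk5r1 encodes p35, the main activator of CDK5 in neurons, and lies on chromosome 11 (80477023-80481184). Its values in Tg(Dyrk1a) were 9.82, 9.73, 9.80, 9.74 and 9.83. Wild-type replicates 1 to 5 read 9.79, 9.79, 9.64, 9.79 and 9.76. Wild-type replicate 3 was the lowest array, below all 5 transgenic ones, and the other 4 wild-type arrays lay within the transgenic range. The difference of 0.03 ± 0.04 (95% interval -0.05 to 0.11, limma adjusted p = 0.969, exact permutation p = 0.460) came to 0.0022 when wild-type replicate 3 was left out and to 0.07 in the 7 arrays of low choroid plexus signal.

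The MARK kinases phosphorylate the microtubule-binding repeats of tau, MAP2 and MAP4. Mark1, on chromosome 1 (184896424-184999954), had values of 8.88, 8.83, 8.92, 8.82 and 8.92 in Tg(Dyrk1a). Wild type had 9.02, 8.86, 8.84, 8.89 and 8.83. Wild-type replicate 1 stood above the other 9 arrays, which were mixed between genotypes. The difference was -0.02 ± 0.04 (95% interval -0.10 to 0.07, limma adjusted p = 0.983, exact permutation p = 0.746), and it was 0.02 without that array.

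Mark2, on chromosome 19 (7275396-7341860), had the largest difference of the 10 genes. Its values in Tg(Dyrk1a) were 9.28, 9.38, 9.30, 9.28 and 9.34. The wild-type values were 9.44, 9.39, 9.32, 9.33 and 9.36. The 3 lowest arrays were transgenic and the 2 highest were wild type, with the remaining arrays mixed. The mean was 0.966-fold of wild type (95% interval 0.918 to 1.02), a log2 difference of -0.05 ± 0.03 (limma adjusted p = 0.948, exact permutation p = 0.127), and 30.8% of all clusters differed by more. It kept the lower mean in Tg(Dyrk1a) in all 21 alternatives, and in none did it pass. The range was -0.07 (marker scores in the fit) to -0.03 (without wild-type replicate 1). The filters, the variance trend with robust estimation, the replicate block and FCROS leave the estimate itself unchanged, so its sign could not change in them.

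The other Mark2 transcript cluster had the lower mean over all arrays and a wider interval. Its values in Tg(Dyrk1a) were 8.76, 8.70, 8.52, 8.55 and 8.59. The 5 wild-type arrays read 8.57, 8.82, 8.69, 8.70 and 8.69. The highest array was wild type and the lowest transgenic, with the rest mixed, and the difference was -0.07 ± 0.05 (95% interval -0.19 to 0.05, limma adjusted p = 0.952, exact permutation p = 0.294). Both clusters thus had the lower mean in Tg(Dyrk1a), and neither passed the test.

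Mark4, on chromosome 7 (19425102-19459330), had values of 9.19, 9.16, 9.14, 9.23 and 9.21 in Tg(Dyrk1a). Wild-type replicates 1 to 5 read 9.28, 9.20, 9.004, 9.14 and 9.30. The wild-type arrays enclosed the transgenic ones, with an SD of 0.121 against 0.038. The difference in means was 0.00079 ± 0.052 (95% interval -0.11 to 0.11, limma adjusted p = 1.00, exact permutation p = 0.992), the widest interval of the 10 genes, and it was -0.04 without wild-type replicate 3.

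**Figure D2:**
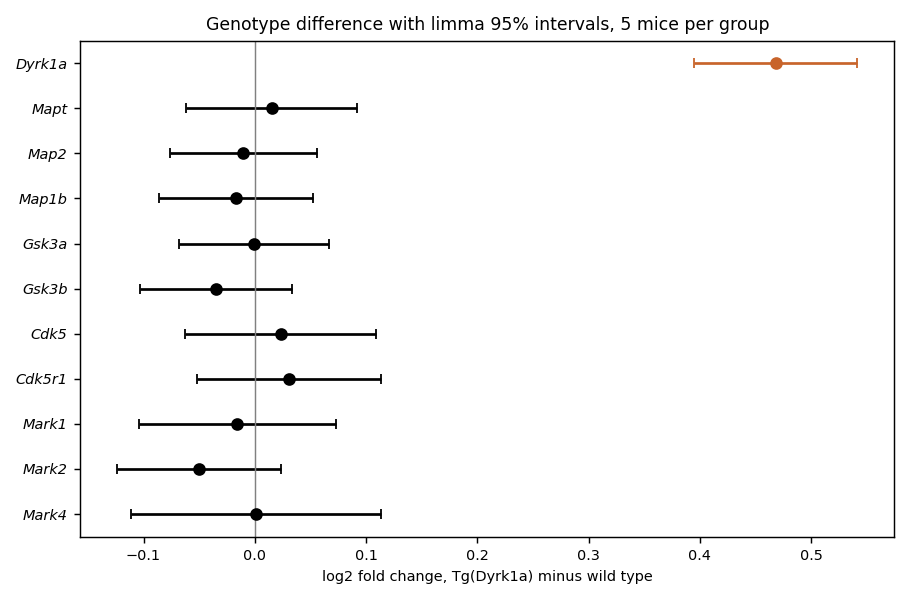
Genotype difference (horizontal axis, log2 units, positive where Tg(Dyrk1a) was higher) of Dyrk1a and the 10 genes, with limma 95% intervals as bars, 5 mice per genotype. The interval of Dyrk1a is far from 0, and each of the 10 others includes 0 and ends within 1.1-fold on either side.

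Single arrays moved several of the 10 genes at once. Wild-type replicate 3 lay below the gene mean in 10 of 10 genes and was the lowest of all arrays for 3. Wild-type replicate 1 lay above it in 9 of 10 and was the highest for 3. The mean deviation over the 10 genes was -0.06 in wild-type replicate 3 and 0.05 in wild-type replicate 1, while the transgenic arrays ran from -0.03 to 0.02. Both ends of the range were therefore wild type.

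Several other measures of wild-type replicate 3 stood low as well, but not all. Its oligodendrocyte markers stood high, at 0.126, below only Tg(Dyrk1a) replicate 2 at 0.141. Its pyramidal and granule cell markers (-0.109) and its endothelial and mural markers (-0.199) were the lowest of the 10 arrays. Its neuron markers were at -0.065 and its other pathway genes at -0.042, the lowest of the 10 arrays for both. The 6089 clusters at least as bright as the dimmest of the 10 genes had a median deviation of -0.037 there, and its array median of 6.66 was the highest. The part of any of these in the low values of the 10 genes was not tested.

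**Figure D3:**
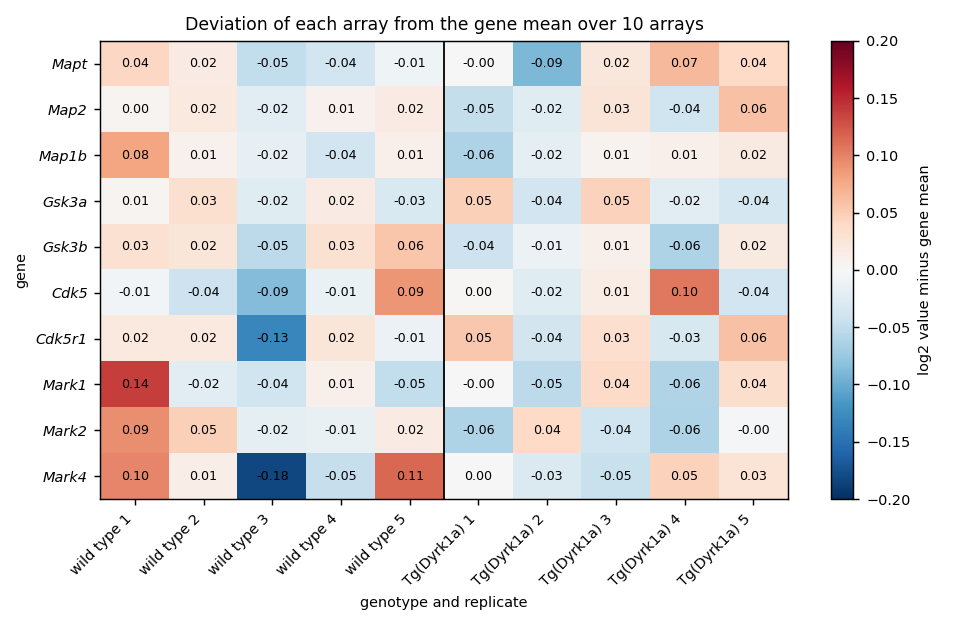
Deviation of each array (columns, genotype and replicate) from the gene mean over 10 arrays for each of the 10 genes (rows), in log2 units by colour and number. Wild-type replicate 3 is below the mean in every row and reaches -0.18 in Mark4, while wild-type replicate 1 reaches 0.14 in Mark1.

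Taken over all mice, the median pair of the 10 genes varied together only weakly. Over the 10 arrays, 36 of the 45 pairs had a positive Pearson's r, with a median of 0.350 and a range of -0.278 to 0.763, and 0 pairs passed after adjustment over the 45 by r or by Spearman's rho. All pairs share the same arrays, so a shift of a whole array enters each of them. Cdk5r1 and Mark4 had an r of 0.548, and of -0.192 without wild-type replicate 3. Within a genotype, over 5 arrays and not tested, r differed for some pairs and not for others. Mapt and Mark2 had 0.985 in wild type and -0.736 in Tg(Dyrk1a), while Map2 and Gsk3b had 0.929 and 0.896. Map2 and Gsk3b had the highest r, 0.763 (permutation p = 0.0109, adjusted 0.489), with a rho of 0.564 (permutation p = 0.0952, adjusted 0.685). It was 0.855 without the 2 arrays farthest from the Map2 median and 0.733 in the 7 arrays with low choroid plexus signal.

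**Figure D4:**
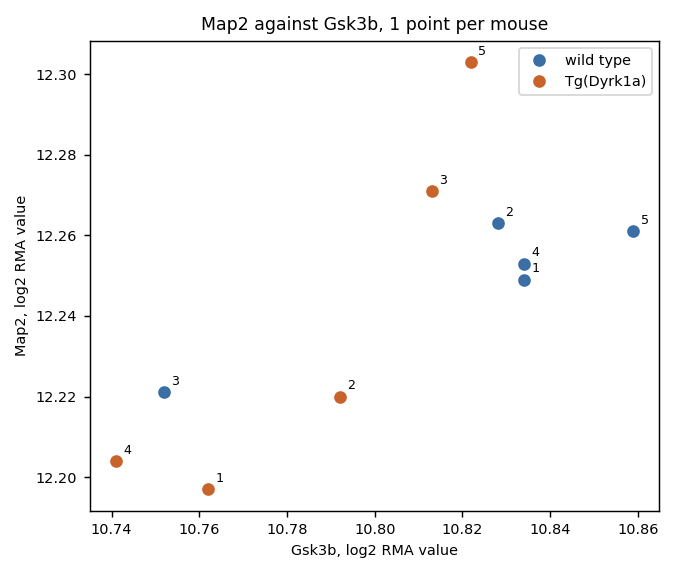
Log2 RMA value of Map2 (vertical axis) against Gsk3b (horizontal axis), 1 point per mouse with its replicate number and coloured by genotype. At like Gsk3b values the Tg(Dyrk1a) points 3 and 5 lie above the wild-type points, and the low end holds Tg(Dyrk1a) 1 and 4 and wild type 3.

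By Pearson's r, only 2 other pairs had an unadjusted permutation p under 0.05. Cdk5 and Mark4 had an r of 0.664 (permutation p = 0.0384, adjusted 0.534) and a rho of 0.491 (permutation p = 0.156, adjusted 0.685), with an r of 0.579 without the 2 farthest arrays. Map1b and Mark2 had an r of 0.640 (permutation p = 0.0451, adjusted 0.534) and a rho of 0.358 (permutation p = 0.312, adjusted 0.718). That last relation rested on the 2 farthest arrays, since r was -0.072 without them. By Spearman's rho, different pairs had an unadjusted permutation p under 0.05. They were Map1b with Mark4 (0.0195), Mapt with Map1b (0.0199), Gsk3b with Mark2 (0.0271) and Cdk5r1 with Mark1 (0.0395). The smallest adjusted permutation p by rho was 0.407. Among 9968 genes at or above the median level, Ppp6r2 (r = 0.921) and Nckap5l (r = 0.904) followed Mapt most closely over the 10 arrays, and Usp5 (r = 0.930) and Tspan12 (r = 0.928) followed Gsk3b. These 4 are a description of likeness and were not tested.

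The other genes of the same pathway showed no shift that passed the test either. Of 147 genes in 6 lists, 134 were measured; 0 passed limma after adjustment, and 3 (2.24%), all lower in Tg(Dyrk1a), had an unadjusted p under 0.05, against 4.93% of all clusters. Their differences ran from -0.13 to 0.10 on the log2 scale with a median of 0.00, and 73 had the higher mean in Tg(Dyrk1a) and 61 the lower. FCROS called 3 of the 134 (2.24%, against 4.83% of all clusters), namely Stmn1 on the lower side and Dpysl4 and Tubb2b on the higher side.

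Of 28 other tau kinases measured out of 34, 13 had the higher mean in Tg(Dyrk1a) and 15 the lower, with a median of 0.00 and 0 at an unadjusted p under 0.05. Mapk13 (6.44 to 6.62) lay about the array medians. Those with the smallest p were the stress kinase gene Mapk14 (0.08 ± 0.04), Prkaa1, a catalytic subunit of the energy sensor AMPK (0.07 ± 0.03), and Stk11, which activates the AMPK and MARK kinases (-0.04 ± 0.03), with limma adjusted p values of 0.947, 0.947 and 0.952. Mark3, the remaining MARK, was at -0.01 ± 0.03, named here as a family member although its p was not among the smallest. All 12 CDK5 activators and regulators were measured, 10 with the higher mean in Tg(Dyrk1a) and 2 with the lower, a median of 0.02 and 0 at an unadjusted p under 0.05. Capns1 and Capn2, the small subunit and a catalytic subunit of calpain, the protease that cuts p35 to p25, were at 0.05 ± 0.03 and 0.06 ± 0.05, and Cdk5rap2, a centrosome protein that binds the CDK5 activator, was at 0.03 ± 0.04, with limma adjusted p values of 0.947, 0.952 and 0.969. The p35 relative Cdk5r2 was at 0.01 ± 0.04.

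Regulators of GSK3 and partners in the beta-catenin destruction complex numbered 18 measured of 20, with 7 higher, 11 lower and a median of -0.01. The 1 gene with an unadjusted p under 0.05 was Frat2, a GSK3-binding protein. Its values were 7.15, 7.14, 7.04, 7.05 and 7.01 in Tg(Dyrk1a) and 7.12, 7.18, 7.21, 7.19 and 7.13 in wild type. All 5 transgenic arrays were below the wild-type mean, but the genotypes overlapped, and the difference of -0.09 ± 0.04 had a limma adjusted p of 0.947 and an exact permutation p of 0.0476 before any adjustment. The scaffold gene Apc was at -0.06 ± 0.04 and Gskip, which binds GSK3, at 0.04 ± 0.03, with limma adjusted p values of 0.948 and 0.952.

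Phosphatases that remove phosphate from tau, with their regulators, numbered 25 measured of 26, with 17 higher, 8 lower, a median of 0.02 and 0 at an unadjusted p under 0.05. Among them Set (5.27 to 5.41) lay under every array median. The smallest p values belonged to Ppp1cb, a catalytic subunit of protein phosphatase 1 (0.07 ± 0.04), and to Ppp2r2d and Ppp2r1a, a regulatory and the scaffold subunit of protein phosphatase 2A (0.08 ± 0.04 and 0.06 ± 0.03), each with a limma adjusted p of 0.947.

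Other microtubule-associated proteins numbered 38 measured of 39, with 19 higher and 19 lower and a median of 0.00. Map7d1, a relative of the microtubule protein ensconsin, was the 1 gene of the 134 without overlap between genotypes, against 0.807% of all clusters. Its values were 10.03, 9.99, 10.05, 10.06 and 10.03 in Tg(Dyrk1a) and 10.20, 10.13, 10.08, 10.08 and 10.09 in wild type. The difference was -0.08 ± 0.03, with a limma adjusted p of 0.947 and an exact permutation p of 0.00794, the smallest that 5 against 5 mice can give. Stmn1, which binds free tubulin and destabilises microtubules, was at -0.11 ± 0.05 (limma adjusted p = 0.947, exact permutation p = 0.0873), and Map1lc3a, a light chain of MAP1 proteins used in autophagy, at 0.09 ± 0.04 (limma adjusted p = 0.947). Map1a and Map4, close in role to the genes above, were at -0.03 ± 0.04 and 0.04 ± 0.03.

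Tubulins, the subunits of the microtubule, numbered 13 measured of 16, with 7 higher, 6 lower, a median of 0.00 and 0 at an unadjusted p under 0.05. Tube1 (5.71 to 5.96) lay under every array median and Tubd1 (6.48 to 6.70) about the medians, so their directions carry little weight. Tubb2a and Tubb2b had nearly the same difference, 0.09 ± 0.04 and 0.09 ± 0.05, and are near-identical genes whose probes may catch each other's RNA. Tuba4a was at 0.05 ± 0.03, and the limma adjusted p values of the 3 genes were 0.947, 0.947 and 0.948.

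**Figure D5:**
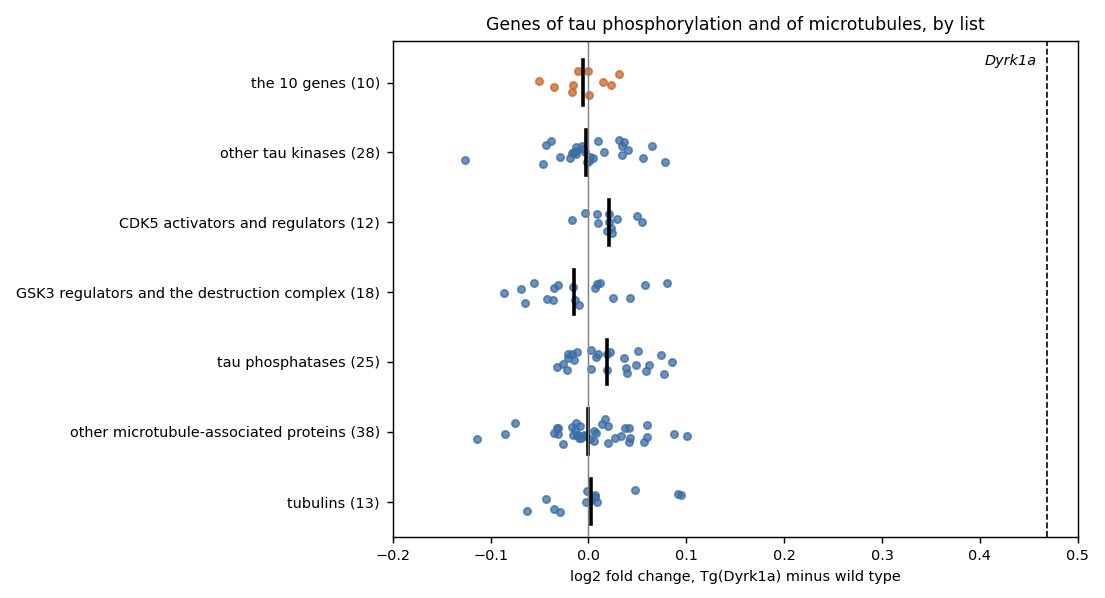
Genotype difference (horizontal axis, log2 units, positive where Tg(Dyrk1a) was higher) of the 10 genes and of the measured genes in each pathway list, 1 point per gene, with the number of genes in brackets and a black bar at the list's median. All points lie between -0.13 and 0.10, and the dashed line marks Dyrk1a at 0.47.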

How the data were processed

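Affymetrix Mouse Gene 1.0 ST arrays measured total RNA of the whole hippocampus. The values deposited by the authors are log2 after RMA (robust multi-array average), which corrects background, normalizes and summarises probes. The submitters' processing notes name RMA, limma and mm10. The set of arrays that went through RMA as 1 batch is not given in the sources used here. RMA compresses fold changes, most in dim clusters. The part of such compression in the 1.38-fold of Dyrk1a, whose cluster stood at the 96.8 percentile of level, was not tested. Its part in the differences and fold bounds of the other genes was not tested either.

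The value table held 35556 rows, of which 23410 had an annotated gene (21789 with 1 symbol, 1621 with several) and 12146 without a gene were not tested. The test was limma (version 3.58.1, R 4.3.3; lmFit, then eBayes, no covariate) with Benjamini-Hochberg adjustment over the 23410 clusters. Single genes also had an exact two-sided permutation test on the means. Errors of differences are limma standard errors. FCROS was rewritten from its description (all 25 pairs of arrays, 25% of ranks trimmed at each end, outer 0.025 of the f-value on each side called). Details and counts of the published package may therefore differ. The f-value is scaled by the mean and SD of the average rank over all clusters, so the share called is largely set by the cut. Member pairs had 100000 permutations. Scripts were tested on simulated data. Positions and promoters came from RefSeq (GRCm38.p6), and coordinates are 1-based.

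The 10 genes and the pathway and marker lists were chosen with earlier results of these data known. Named pathway genes were the 3 with the smallest limma p in each list, and others named were chosen after their values were seen. Alternatives were other scalings, filters, estimators and probe summaries, covariates, arrays left out and FCROS. Precision is limited by 5 arrays per genotype.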

Additional observations from a re-analysis of the deposited data

Results flagged for a closer look

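In 2 of the 22 groups of 5 arrays examined (Dyrk1a and the 10 genes in each genotype), 1 array lay far from the rest, as judged by its gap to the nearest array over the whole range of the group; chance alone gives about 1 in 20 groups. In wild type, Gsk3b was lowest in replicate 3, at 10.75 against 10.83 in the nearest array, a gap of 0.715 of the range. Cdk5r1 in wild type was also lowest in replicate 3, at 9.64 against 9.76, a gap of 0.774 of the range. Without that array the difference was -0.05 for Gsk3b and 0.0022 for Cdk5r1, and neither passed limma.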

How the results depend on the processing

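Over 21 alternatives, 0 of the 10 genes passed by limma or by FCROS, the smallest limma adjusted p was 0.787, and no difference exceeded 0.074 in size. Mapt, Gsk3b, Cdk5, Cdk5r1 and Mark2 kept their direction throughout. The filters, the variance trend with robust estimation, the replicate block and FCROS leave each estimate unchanged, so no sign could change in them. The mean of all clusters of a gene does so too, except for Mark2. The other 5 genes changed sign in 23 values. The largest of these in size was Mark4 without wild-type replicate 3 (-0.0446), and the cause was not tested. Mark4 was -0.0121 with quantile normalization and -0.000769 with array weights. Map2 was 0.00501 with median centring, 0.00604 with array weights and 0.0104 after the 3 arrays with high choroid plexus signal were left out. Gsk3a was 0.0148, 0.0116 and 0.0040 with median centring, without those arrays and with 3 marker scores (choroid plexus, meninges, thalamus) in the fit. Mark1 was 0.00722 with array weights and 0.00255 without those arrays. With 1 replicate left out in turn, the range was -0.0262 to 0.00024 for Map2, -0.0287 to 0.000675 for Map1b, -0.0126 to 0.00897 for Gsk3a, -0.0298 to 0.0172 for Mark1 and -0.0446 to 0.0296 for Mark4. Dyrk1a was 0.446 with the marker scores as covariates (limma adjusted p = 0.380) and passed in every other limma fit. Pathway genes called numbered 3 by FCROS and 0 by limma. Clusters passing limma numbered 2 as reported, 1 to 2 in most alternatives, 5 with array weights and 0 with the covariates. FCROS called 1131, a number largely set by its cut.

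Both genotypes carry replicate numbers 1 to 5. Same-numbered arrays deviated together at r from -0.285 to 0.277, and 1 of 5 correlated best with its own number. These values gave no sign of pairing by number, but 5 pairs are too few to settle whether the mice were paired. A replicate block left 0 of the 10 genes and 0 pathway genes passing and 1 cluster in all.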
